A study of Mus musculus with 2 samples.

Results

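The genes described here are 10 transcription factors of hair matrix differentiation: Lef1, Msx1, Msx2, Hoxc13, Foxn1, Dlx3, Gata3, Cux1, Foxq1 and Ovol1. They were chosen by symbol from the 32285 genes of the count tables, and all 10 had UMIs (unique molecular identifiers, counts of single captured transcripts) in both libraries. The data are single-cell RNA-seq of dorsal skin from male C3H/HeN mice aged 9 weeks, with 15 mice pooled into 1 library per group. The control group received vehicle, and the TP group is a model of androgenetic alopecia made by injecting testosterone propionate under the shaved skin at 0.5 mg per day from 7 weeks of age. A further group, given TP and an antibody to CXCL12, was not analysed here. With 1 library per group no test between groups was possible, so each value is given with a 95% interval that covers counting error only, and differences between mice, pools or dissociations were not measured.

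In a growing follicle, matrix keratinocytes around the dermal papilla divide and then enter either the hair shaft (medulla, cortex and cuticle) or the inner root sheath, the sleeve that guides the shaft. WNT signals acting through beta-catenin and LEF1, and BMP signals acting through factors such as MSX2, direct shaft differentiation. HOXC13 and FOXN1 act on hair keratin genes, DLX3 is needed for the shaft and the inner root sheath, and GATA3 and CUX1 are known for their roles in the inner root sheath. FOXQ1 is the gene altered in satin mice, whose hair medulla is abnormal, and OVOL1 is a zinc finger factor that restrains growth of differentiating keratinocytes.

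RefSeq promoter sequence of GRCm38.p6 was matched for 6 of the 10 genes, with 9 start sites in all. The 250 bases before the first Lef1 start and before the Msx1 and Msx2 starts are shown because Lef1 and Msx2 were lower by at least 2-fold over the whole TP library while Msx1, the closest relative of Msx2, was lower by less than that. The capitals mark CG dinucleotides. The windows are chr3:131110047-131110296 on the plus strand for Lef1, chr5:37824586-37824835 on the minus strand for Msx1 and chr13:53472781-53473030 on the minus strand for Msx2.
Lef1: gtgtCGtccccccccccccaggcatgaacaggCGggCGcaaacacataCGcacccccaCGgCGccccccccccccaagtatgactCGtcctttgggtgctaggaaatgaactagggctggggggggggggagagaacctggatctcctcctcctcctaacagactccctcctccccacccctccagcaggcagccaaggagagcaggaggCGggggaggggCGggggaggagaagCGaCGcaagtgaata
Msx1: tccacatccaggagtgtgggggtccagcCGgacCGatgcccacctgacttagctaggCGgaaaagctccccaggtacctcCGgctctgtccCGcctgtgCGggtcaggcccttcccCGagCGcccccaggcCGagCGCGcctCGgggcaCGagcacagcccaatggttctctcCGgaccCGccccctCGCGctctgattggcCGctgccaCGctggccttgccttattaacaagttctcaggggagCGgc
Msx2: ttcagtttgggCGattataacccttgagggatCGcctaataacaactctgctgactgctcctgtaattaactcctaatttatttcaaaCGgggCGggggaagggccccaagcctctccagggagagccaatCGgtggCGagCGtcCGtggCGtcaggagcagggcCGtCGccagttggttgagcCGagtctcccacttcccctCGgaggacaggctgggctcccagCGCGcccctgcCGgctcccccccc

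The Lef1 window holds 11 CG dinucleotides, the Msx1 window 20 and the Msx2 window 16, against a median of 6 over the 32851 promoters of the table. Motifs were searched on both strands of these windows. The letters CTTTGAT, bound by LEF1 and its relatives, stood in 0 of the 9 windows and in 3.21% of all promoters. The GATA site AGATAA stood in 0 of the 9 and in 9.99% of all. The MSX and DLX homeodomain site TAATTG stood in 0 of the 9 and in 7.17% of all. The TATA box letters TATAAA stood in 1 of the 9 windows, that of a Lef1 start inside the gene (chr3:131156044-131156293), and in 12.4% of all promoters. The libraries read the 3′ ends of transcripts, so they do not show which start was used.

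After filtering, the control library held 39076 cells with a median of 2063 UMIs and the TP library 18542 cells with a median of 5045 UMIs. The libraries shared 303 barcodes, 0.663% of those in the control library and 1.17% of those in the TP library. Clustering gave 30 clusters. Of these, 20 were named as 15 cell classes by their markers, and 10 were left unnamed and are called by their 2 leading genes. Shh was among the leading genes of the hair matrix-like cells, Krt31 and Krt33a of the hair cortex-like cells and Krt71 and Krt25 of one inner root sheath-like cluster. DPC denotes dermal papilla cells, DF dermal fibroblasts and IFE interfollicular epidermis. The 5 named classes that form the hair and its inner sheath (hair matrix-, hair shaft precursor-, hair shaft cuticle-, hair cortex- and inner root sheath-like) made up 30.3% of control cells (29.8 to 30.7, Clopper-Pearson) and 9.65% of TP cells (9.23 to 10.1). The TP share was 0.319 of the control share (0.303 to 0.335). The unnamed clusters, which these shares leave out, held 41.9% of control and 33.0% of TP cells. Among them the Hbb-bs/Scube2, Creb5/Slc30a1 and Prr9/Crym clusters scored highest for inner root sheath markers, and their TP shares were 0.159, 0.115 and 1.45 of the control shares. For each class and library the UMIs of a gene were added up and given per 1000000 UMIs of that class (CPM).

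Among the 25 classes and clusters, the class of highest CPM was the same in both libraries for 8 of the 10 genes. The exceptions were Msx1 and Msx2. Hair cortex-like cells led for Lef1, Foxn1 and Ovol1, hair shaft cuticle-like cells for Hoxc13, and inner root sheath-like cells for Dlx3 and Gata3. Cux1 and Foxq1 led in unnamed clusters. Levels are compared below between classes for 1 gene at a time and not between genes, since gene length and capture differ.

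**Figure D1:**
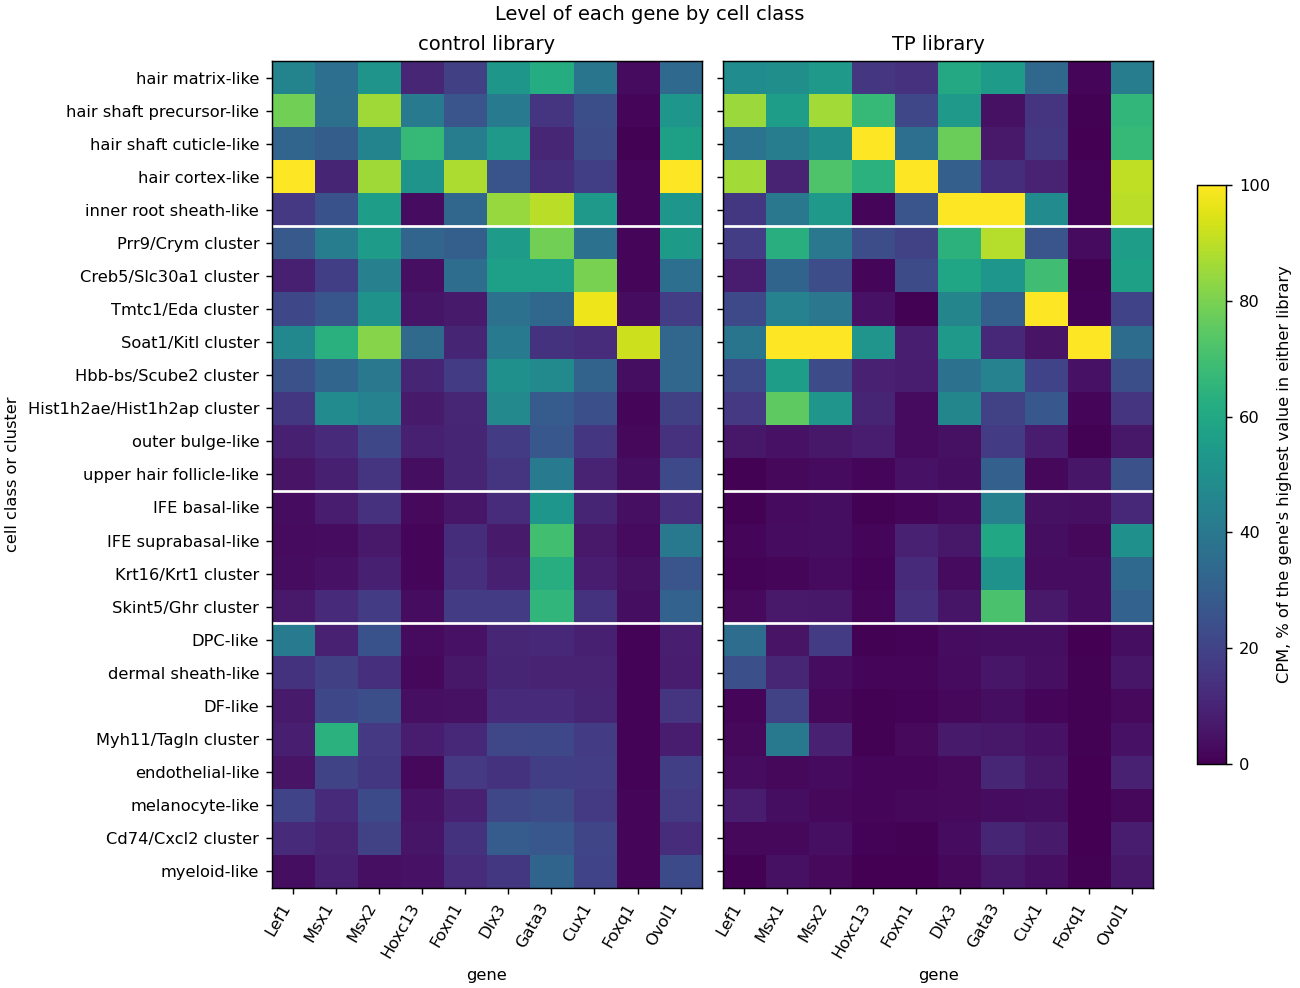
Level of each gene (columns) in each of the 25 cell classes or clusters (rows) for the control library (left) and the TP library (right). Colour gives the percentage of the gene's highest CPM in either library. White lines separate hair-forming classes, rows drawn as other follicle cells (several of them unnamed clusters), epidermis and the remaining cells. Foxq1 was bright in 1 cluster in both libraries, whereas Gata3 was also found in the 4 rows drawn as epidermis. Of these, the Krt16/Krt1 and Skint5/Ghr clusters are unnamed.

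Lef1, the HMG-box partner of beta-catenin, had its highest levels in hair cortex-like and hair shaft precursor-like cells in both libraries. In hair matrix-like cells its level was 1324 CPM (Poisson interval 1299 to 1350) in the control library and 1428 CPM (1382 to 1474) in the TP library. In hair shaft precursor-like cells it was 2322 CPM (2284 to 2360) and 2503 CPM (2415 to 2594). In hair cortex-like cells it was 2947 CPM (2868 to 3027) and 2537 CPM (2432 to 2645). The cortex level exceeded the precursor level 1.27-fold in the control library (1.23 to 1.31), while in the TP library the ratio was 1.01 and its interval included 1 (0.959 to 1.07). The Soat1/Kitl cluster held 1376 CPM (1335 to 1418) in the control library and 1140 CPM (1099 to 1183) in the TP library. The Prr9/Crym cluster held 825 and 535 CPM, the Hbb-bs/Scube2 cluster 728 and 655 CPM, the Tmtc1/Eda cluster 644 and 645 CPM and inner root sheath-like cells 484 and 474 CPM. Among mesenchymal cells, DPC-like cells held 1201 CPM in the control library and 1051 CPM in the TP library, and dermal sheath-like cells 437 and 725 CPM. Of 1000 UMIs drawn from each cell, 1 or more were Lef1 in 90.0% of control and 85.8% of TP hair cortex-like cells (98.9% and 94.5% before drawing). The share was 4.62% and 2.43% in myeloid-like cells (16.2% and 7.48%), which are not known for Lef1 and serve as a measure of background.

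Hoxc13, a homeodomain activator of hair keratin genes, was highest in hair shaft cuticle-like cells, at 535 CPM (503 to 569) in the control library and 798 CPM (739 to 861) in the TP library. Hair cortex-like cells held 412 and 510 CPM and hair shaft precursor-like cells 331 and 536 CPM. The gene was at 85.0 and 127 CPM in hair matrix-like cells and at 25.2 and 12.4 CPM in inner root sheath-like cells. The order of the 2 libraries was therefore opposite in the inner root sheath-like cells and in the shaft classes. The myeloid-like background was 38.1 CPM (15.3 to 78.5) in the control library, above the inner root sheath-like value, and 2.66 CPM (0.549 to 7.78) in the TP library.

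Foxn1, the forkhead gene mutated in nude mice, was at 261 CPM (238 to 286) and 297 CPM (262 to 335) in hair cortex-like cells. The next class, hair shaft cuticle-like, held 125 and 108 CPM, so the cortex level exceeded it 2.08-fold in the control library (1.78 to 2.44) and 2.75-fold in the TP library (2.15 to 3.53). Ovol1 was also highest in hair cortex-like cells, at 218 CPM (197 to 240) and 197 CPM (168 to 229). Its levels in inner root sheath-like cells were 115 CPM (109 to 121) and 195 CPM (183 to 207), so that in the TP library the first 2 classes had overlapping intervals. Ovol1 was found in epidermis too, with 88.0 and 109 CPM in IFE suprabasal-like cells. Its 2 clusters there went in opposite directions, from 108 to 121 CPM in the one led by Hrnr, which made up 51.8% of control and 84.5% of TP cells of the class, and from 70.8 to 44.9 CPM in the one led by Skint5.

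Gata3, a zinc finger factor of the inner root sheath, was at 622 CPM (609 to 636) and 695 CPM (672 to 718) in inner root sheath-like cells. The Prr9/Crym cluster, whose leading genes include the cuticle marker S100a3 and the sheath keratin Krt73, followed with 547 and 618 CPM. In hair shaft precursor-like cells Gata3 was at 106 CPM (control) and 30.5 CPM (TP), and in hair cortex-like cells at 91.8 and 90.9 CPM. The control values of these shaft classes lay below the control myeloid-like value of 223 CPM (160 to 303), whereas the TP myeloid-like value was 43.5 CPM (32.2 to 57.5). Levels in epidermis were close to those of hair matrix-like cells: IFE suprabasal-like cells held 484 and 414 CPM and hair matrix-like cells 431 and 381 CPM. Dlx3, a homeodomain factor, led in inner root sheath-like cells at 285 CPM (276 to 294) and 337 CPM (321 to 353). It was spread over the shaft classes as well, with 182 and 261 CPM in hair shaft cuticle-like cells and 179 and 203 CPM in hair matrix-like cells.

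Cux1, a homeodomain protein with CUT repeats, was highest in the Tmtc1/Eda cluster, at 5356 CPM (5280 to 5433) and 5493 CPM (5360 to 5629). The Creb5/Slc30a1 cluster followed at 4392 and 3815 CPM and inner root sheath-like cells at 2943 and 2657 CPM. Cux1 is itself among the 10 leading genes of the first 2. Most cell types transcribe Cux1, so myeloid-like cells (1111 and 232 CPM) were not read as background for it. The same gene also makes CASP, a Golgi protein without the homeodomain, and the 2 products were not separated in these counts.

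Foxq1 was concentrated in the Soat1/Kitl cluster, whose 10 leading genes include Foxq1 and the keratin Krt75, a marker of companion layer and medulla. It held 582 CPM (555 to 609) in the control library and 631 CPM (600 to 663) in the TP library. No other class reached above 29.2 CPM in the control library (Krt16/Krt1 cluster) or 37.9 CPM in the TP library (upper hair follicle-like). The lead over the next class was 19.9-fold (16.5 to 24.3) and 16.6-fold (14.7 to 18.9). This cluster held 53.3% of all Foxq1 UMIs of the control library and 44.2% of those of the TP library, from 834 and 314 cells. With cells drawn to 1000 UMIs, 35.4% of control cells and 32.1% of TP cells of the cluster had a Foxq1 UMI (59.4% and 66.6% before drawing), against 1.54% and 0.485% of myeloid-like cells (1.35% and 1.40%).

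Msx1 and Msx2, homeobox genes that respond to BMP, had low counts and broad levels. Msx1 was highest in the TP library in the same Soat1/Kitl cluster, at 121 CPM (108 to 136). In the control library that cluster held 76.9 CPM (67.4 to 87.4) and the Myh11/Tagln cluster 77.6 CPM (42.4 to 130), from 14 UMIs. The 2 control values were indistinguishable. Msx2 was at 114 CPM in both hair cortex-like and hair shaft precursor-like cells of the control library and at 109 CPM in the Soat1/Kitl cluster. In the TP library the Soat1/Kitl cluster led with 134 CPM (120 to 149), followed by hair shaft precursor-like cells with 115 CPM (97.0 to 136), and the ratio of 1.16 had an interval that included 1 (0.948 to 1.42).

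**Figure D2:**
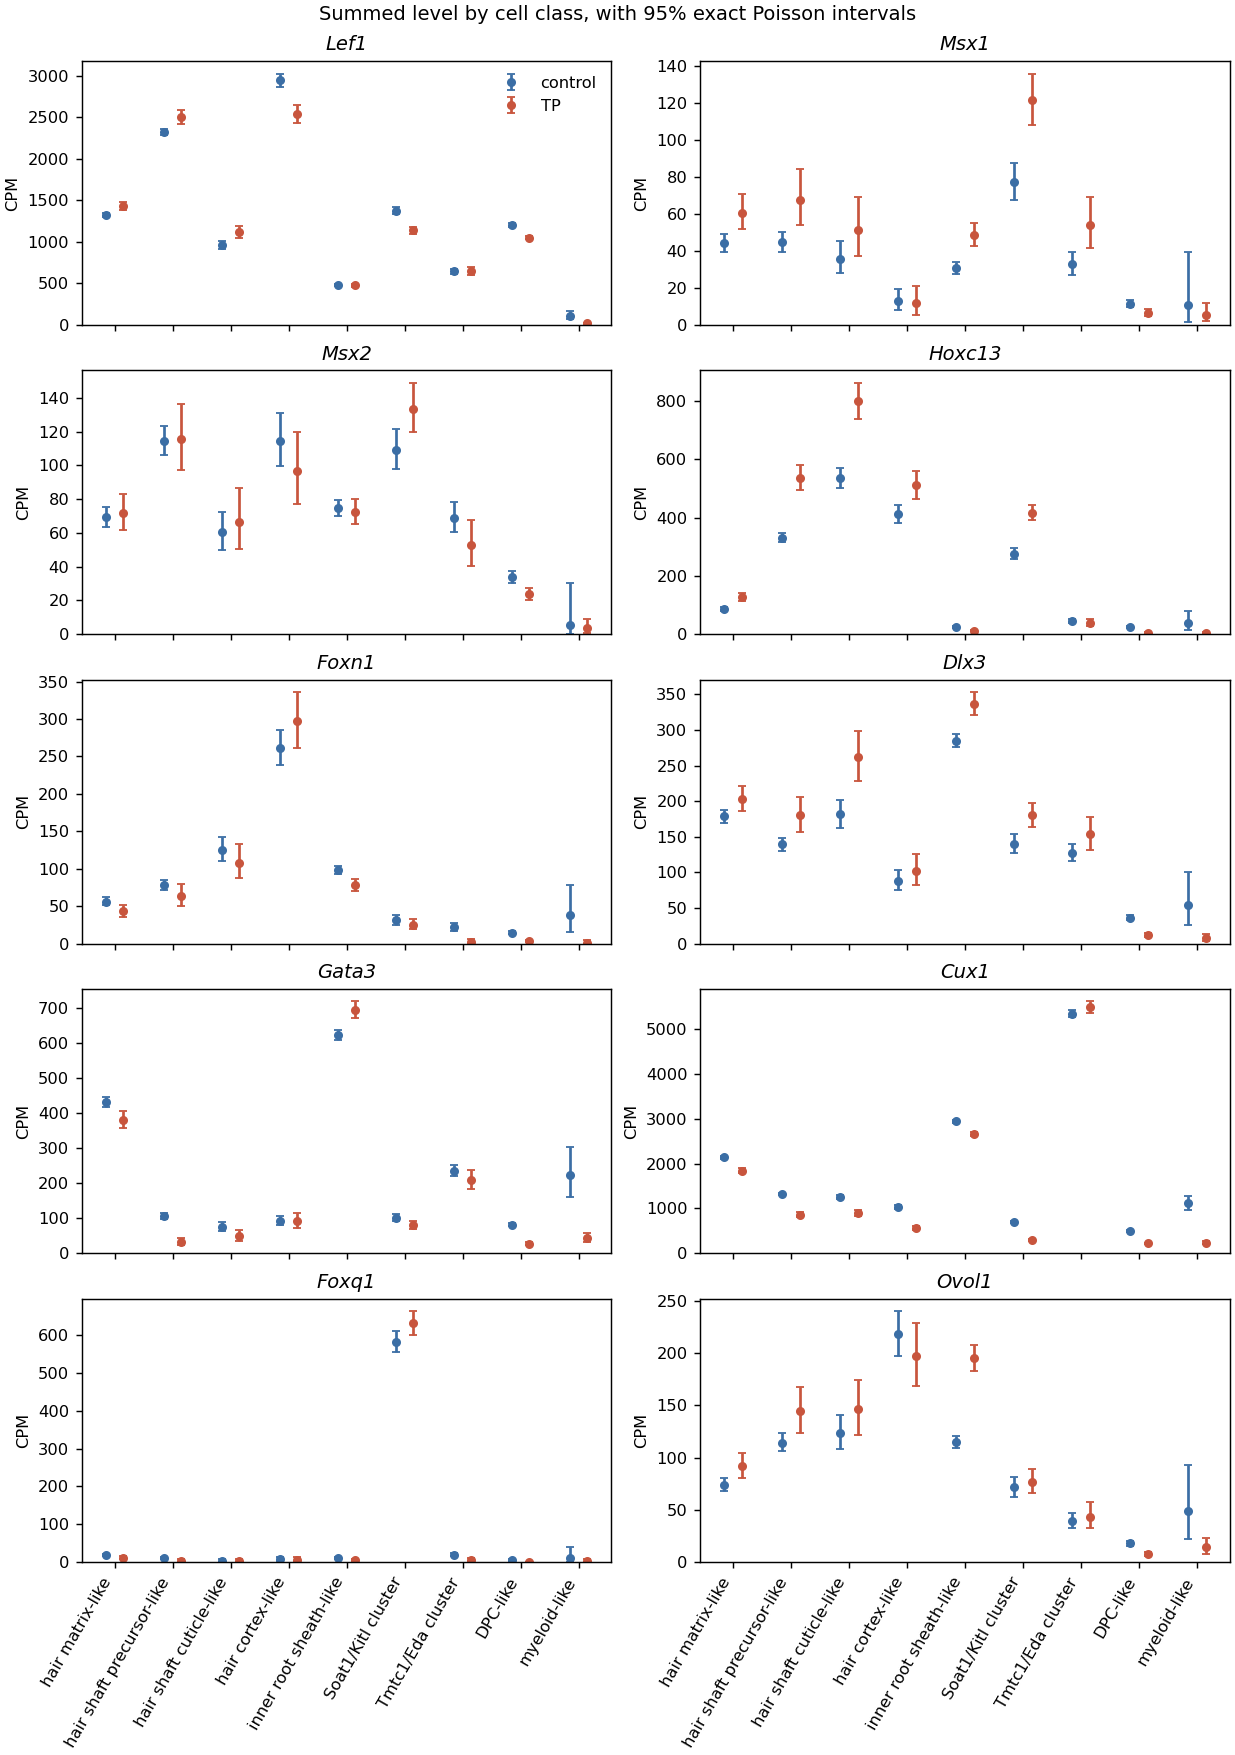
Summed CPM of each gene (vertical axis, starting at 0 in each panel) in the 5 hair-forming classes, 2 unnamed clusters, DPC-like cells and myeloid-like cells. Blue points show control, red points TP and bars the 95% exact Poisson interval. Hoxc13 was higher in TP in the 4 shaft and matrix classes and lower in inner root sheath-like cells, and Foxq1 stood out in the Soat1/Kitl cluster alone.

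Over classes, some of the genes ran together and others apart. Across the 50 points given by 25 classes in 2 libraries, the Pearson correlation of log2(CPM + 1) was 0.90 for Msx2 with Dlx3, 0.85 for Lef1 with Msx2, 0.84 for Dlx3 with Cux1 and 0.83 for Foxn1 with Ovol1. It was −0.13 for Lef1 with Gata3 and −0.02 for Hoxc13 with Gata3. The points share libraries, depth and free RNA, so these are descriptions. Within hair matrix-like cells drawn to 1000 UMIs, Gata3 was detected in 25.8% of the 1893 control cells with Lef1 and in 37.8% of those without Lef1. The TP values were 16.7% of 323 cells with Lef1 and 33.7% of those without it. The share with Gata3 in myeloid-like cells was 13.8% and 3.88%, and the part of free RNA in these shares was not tested. In the Soat1/Kitl cluster, Foxq1 was detected in 45.1% of the 173 control cells with Hoxc13 and in 32.7% of those without it, and in the TP library in 37.9% of 87 cells and in 29.7%.

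The genes whose pattern was most like each member's were taken from 13327 genes by the same correlation over the same 50 points. They were Tiam2 (0.92) for Lef1, Gmcl1 (0.90) for Msx2, Dclk3 (0.91) for Hoxc13, Sh2d4a (0.89) for Foxn1, Golga7b (0.92) for Dlx3, Paqr5 (0.90) for Gata3, Slc39a10 (0.91) for Cux1 and Grhl1 (0.94) for Ovol1. For Msx1 the closest gene, Nab2, reached 0.78, and for Foxq1 the closest, Csta1, reached 0.79. The next in order were Tmeff1, Ldlrad3, Atad2b, Kcnh1, Bspry, Slc30a1, Pof1b, Lbr, Krt23 and Sppl3 for Lef1, Msx1, Msx2, Hoxc13, Foxn1, Dlx3, Gata3, Cux1, Foxq1 and Ovol1.

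The first comparison between the groups takes all kept cells together, so that fewer cells of a type and less RNA per cell cannot be told apart in it. All 10 genes had a lower CPM in the TP library, although Gata3 (1.06) and Ovol1 (1.14) lay above 1 when scaled by the TMM factor. Of the 10, 5 were lower by at least 2-fold, and with the TMM factor 2 were, Lef1 and Cux1. The means of ln(counts per 10000 + 1) were compared too. Their ratio is not a fold of expression and depends on depth, which differed between the libraries. On it 0 passed the same limit, and Foxq1 (1.22), Gata3 (1.06) and Ovol1 (1.05) lay above 1. Lef1 was at 696 CPM (691 to 701) in the control library and 291 CPM (289 to 294) in the TP library, a ratio of 0.419 (0.413 to 0.424). Cux1 went from 1596 to 593 CPM, a ratio of 0.372 (0.369 to 0.375). Msx2, Foxn1 and Dlx3 had ratios of 0.446, 0.458 and 0.482. The remaining 5 were within 2-fold: Hoxc13 at 0.593, Msx1 at 0.815, Foxq1 at 0.830, Gata3 at 0.887 and Ovol1 at 0.958. Of 19589 genes with at least 20 UMIs, 12.3% were lower and 8.48% higher by 2-fold or more.

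Holding the class make-up fixed moved the ratios of the 5 lower genes nearer to 1. A class share here is its share of the library's UMIs, not of its cells. By UMIs the 5 hair-forming classes held 28.5% of the control and 7.64% of the TP library. With each class given its control share of UMIs in both libraries, the ratio was 0.934 for Lef1, 0.865 for Msx2, 0.696 for Foxn1, 1.02 for Dlx3 and 0.812 for Cux1. At these shares 0 of the 10 genes passed 2-fold, and the share of all genes doing so was not counted. The ratio was then above 1 for Msx1 (1.39), Hoxc13 (1.20) and Ovol1 (1.21), so that Msx1 and Ovol1 lay further from 1 than before, while Foxq1 (0.933) and Gata3 (0.898) stayed below 1. With the TP shares in both libraries 0 passed 2-fold either, Msx1 (1.17) and Ovol1 (1.11) were again above 1, and Hoxc13 (0.966) and Dlx3 (0.825) were below it. The 5 hair-forming classes held 50.7% of the Lef1 UMIs and 54.7% of the Hoxc13 UMIs of the control library, and 30.5% and 32.4% of those of the TP library. Counted in cells, the TP share of hair shaft precursor-like cells was 0.190 of the control share (0.165 to 0.218). That of hair matrix-like cells was 0.331 (0.300 to 0.364) and that of inner root sheath-like cells, the class with most cells of the 5, was also 0.331 (0.307 to 0.357). Hair cortex-like and hair shaft cuticle-like cells were at 0.497 and 0.530.

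**Figure D3:**
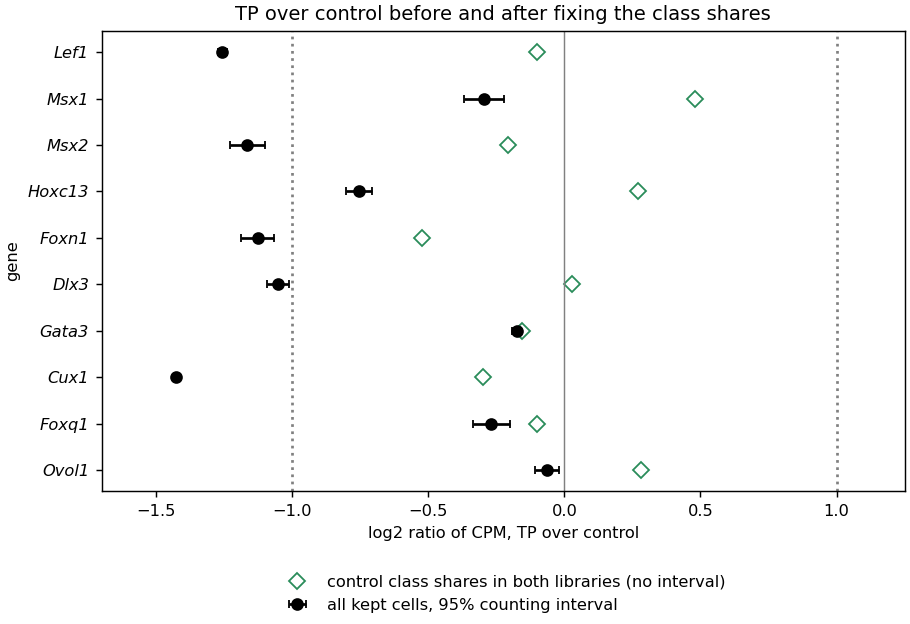
Log2 ratio of CPM in TP over control for each gene (rows), with black points for all kept cells and their 95% counting interval. Open green diamonds show the ratio with the control class shares of UMIs in both libraries, and dotted lines a 2-fold difference. The black points of Lef1, Msx2, Foxn1, Dlx3 and Cux1 lie past the lower line and no diamond does.

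The second comparison was made within each class, where the number of cells of the class does not enter, although in a class of several clusters their mix does. Of 250 pairs of a gene and a class, 228 had at least 20 UMIs over both libraries. Among them 88 were lower in TP by at least 2-fold and 1 was higher, against 7.81% lower and 3.94% higher among all 275744 pairs of the data. The median log2 ratio was −0.55 over the members' pairs and −0.13 over all pairs.

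The lower values were largely outside the hair-forming classes. In the 5 hair-forming classes 2 of 48 pairs were lower by 2-fold and 0 were higher, where 4.97% and 2.82% of all pairs were. Their median log2 ratio was 0.04, against −0.09 for all genes of these classes. The 2 lower pairs were both in hair shaft precursor-like cells: Gata3 with 651 control and 37 TP UMIs and a ratio of 0.289 (0.201 to 0.402), and Foxq1 with 64 and 4 UMIs and a ratio of 0.317 (0.0840 to 0.853). Both control values were at or under the upper bound of the control myeloid-like value, which for Foxq1 was 10.9 CPM (1.32 to 39.3) beside 10.4 CPM in the precursor cells. With 1 UMI added to each library, as for the calls, Gata3 was at 0.296 and Foxq1 at 0.391, and in cells drawn to 1000 UMIs at 0.343 and 0.558, so that Foxq1 was then within 2-fold. In the other 20 classes and clusters 86 of 180 pairs were lower and 1 was higher, where 8.52% and 4.22% of all pairs were. The lower pairs were unevenly spread. The Hbb-bs/Scube2, Creb5/Slc30a1, Hist1h2ae/Hist1h2ap, Tmtc1/Eda, Soat1/Kitl and Prr9/Crym clusters and IFE suprabasal-like cells had 0 to 2 of 10 each, where 3.06% to 14.6% of all genes were lower. The rest ran from 4 of 9 in dermal sheath-like to 9 of 9 in melanocyte-like cells, where 7.91% and 12.6% were.

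Within the hair-forming classes, differences below 2-fold exceeded counting error in both directions. Hoxc13 was higher in TP in hair matrix-like cells with a ratio of 1.49 (1.30 to 1.70), in hair shaft precursor-like cells with 1.62 (1.48 to 1.77), in hair shaft cuticle-like cells with 1.49 (1.35 to 1.65) and in hair cortex-like cells with 1.24 (1.10 to 1.39). In inner root sheath-like cells its ratio was 0.495 (0.372 to 0.649), just inside the 2-fold limit once 1 UMI was added to each library, and it was lower in both clusters of that class (0.521 and 0.502). Ovol1 and Msx1 were higher in inner root sheath-like cells, with ratios of 1.70 (1.57 to 1.84) and 1.58 (1.35 to 1.86). Dlx3 was higher in hair shaft cuticle-like cells, with a ratio of 1.44 (1.21 to 1.71). Cux1 was lower in all 5 classes, from 0.542 in hair cortex-like to 0.903 in inner root sheath-like cells. The hair cortex-like levels were 1022 and 554 CPM, the control one below that of control myeloid-like cells (1111 CPM). Foxn1 was lower in hair matrix-like cells with a ratio of 0.763 (0.614 to 0.942) and in inner root sheath-like cells with 0.794 (0.708 to 0.889). Its intervals in the other hair-forming classes included 1. Lef1 ranged from 0.861 in hair cortex-like to 1.17 in hair shaft cuticle-like cells, and Msx2 from 0.845 to 1.10.

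In DPC-like cells 7 of the 10 genes were lower by 2-fold or more and 0 were higher, where 9.40% and 4.54% of the 14334 genes tested in this class were. The 7 were Hoxc13, Foxn1, Dlx3, Gata3, Cux1, Foxq1 and Ovol1. All 7 had a control level below the control myeloid-like value, which is no measure of background for Cux1 (492 beside 1111 CPM). Gata3 was at 80.8 CPM beside 223 CPM, and Hoxc13 at 23.3 CPM beside 38.1 CPM. Lef1 was not among the 7, with a ratio of 0.875 (0.851 to 0.899). Its ratio was 0.797 in the cluster led by Ndnf and 0.986 in the cluster led by Sostdc1, which made up 34.8% of control and 62.4% of TP DPC-like cells. Cux1 was at 0.425 and 0.520 in the same clusters, so that it was within 2-fold in the one led by Sostdc1. Dermal sheath-like cells, led by Dkk2, Igfbp3 and Gpc5, had a Lef1 ratio of 1.66 (1.49 to 1.85). In the Soat1/Kitl cluster Foxq1 was at a ratio of 1.08 (1.01 to 1.16), Hoxc13 at 1.51 (1.38 to 1.66), Msx1 at 1.58 (1.33 to 1.88) and Cux1 at 0.432 (0.397 to 0.470). The single higher pair was Foxq1 in the Prr9/Crym cluster, from 22 control and 94 TP UMIs, with a ratio of 2.36 (1.47 to 3.94). With 1 UMI added its ratio was 2.28, and 0.831 in cells drawn to 1000 UMIs, so neither the call nor the direction held.

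The lower values were set beside the level of the same genes in myeloid-like cells. Of the 88 lower pairs 14 were of Cux1, for which myeloid-like cells are no measure of background, and 3 were of other members in myeloid-like cells themselves. Of the remaining 71, 65 had a control CPM at or under the upper bound of the control myeloid-like value for the same gene. The 6 above it were Lef1 in DF-like cells (213 to 36.6 CPM), melanocyte-like cells (595 to 239 CPM), the Skint5/Ghr cluster (203 to 74.7 CPM), the Cd74/Cxcl2 cluster (349 to 57.8 CPM) and the Myh11/Tagln cluster (244 to 66.7 CPM), and Msx2 in DF-like cells (32.1 to 3.05 CPM). The Cd74/Cxcl2 cluster scored highest for lymphocyte markers (5.30) and next for myeloid markers (2.79). T cells transcribe Lef1, and the mix of cells in that cluster was not separated. The myeloid-like bound rested on 74 cells and few UMIs: 1 for Msx2, 2 each for Msx1 and Foxq1, 7 each for Hoxc13 and Foxn1. Control intervals lay above it in 1 of 25 classes for Foxq1, 5 for Foxn1 and Ovol1, and 6 for Hoxc13 and Msx1. For the other members except Cux1 they did in 9 to 19. No such share was counted for pairs not called lower, so the 65 do not set the lower pairs apart. In myeloid-like cells 4 of the 10 members had at least 20 UMIs, and all 4 were lower by 2-fold, where 18.1% of the 7565 genes tested in this class were: Cux1 at 1111 and 232 CPM, Lef1 at 109 and 17.7 CPM, Gata3 at 223 and 43.5 CPM and Ovol1 at 49.0 and 14.2 CPM. The 6 inner root sheath markers, which myeloid cells lack, summed there to 2396 CPM in the control library and 387 CPM in the TP library, with 0 markers undetected in either. The 7 hair cortex markers summed to 27.2 and 14.2 CPM, with 4 of them at 0 in the control library and 2 in the TP library. The part of free RNA in the lower values was not tested.

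**Figure D4:**
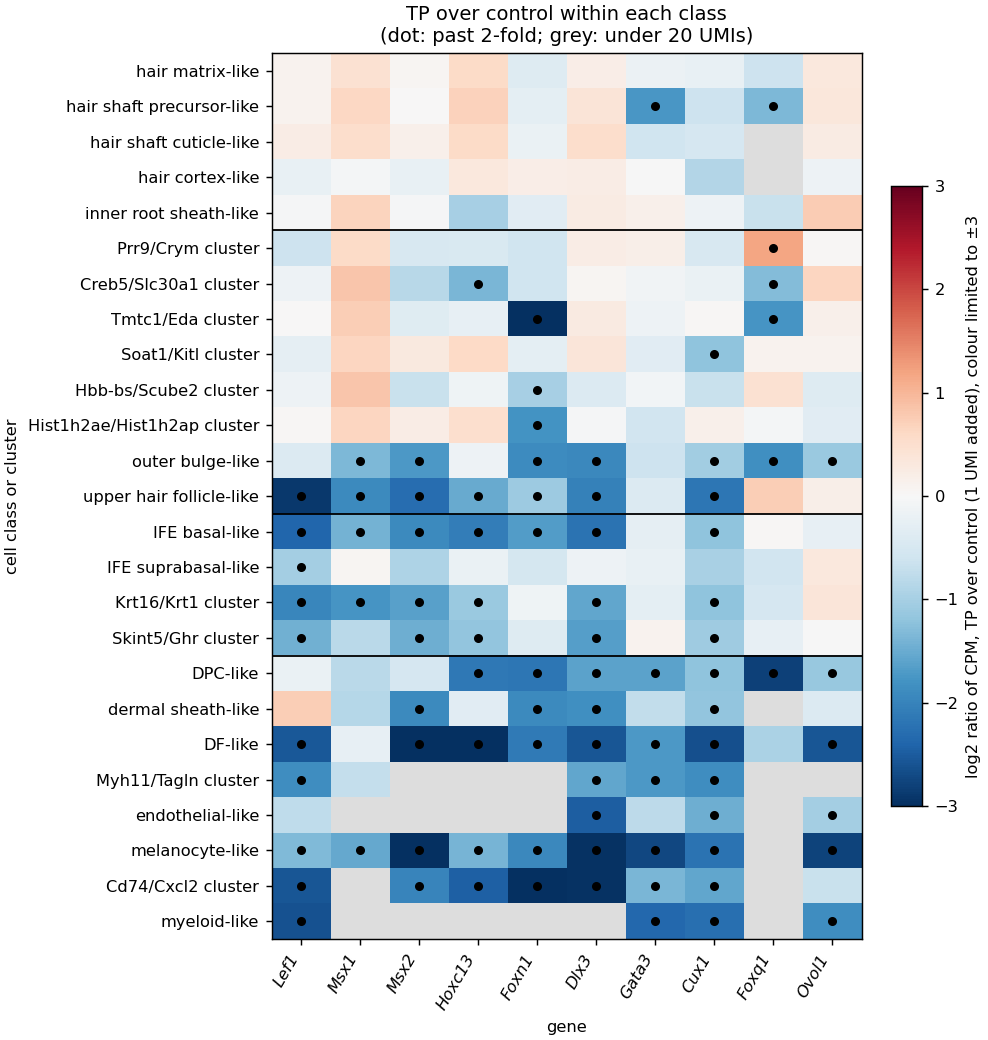
Log2 ratio of CPM in TP over control for each gene (columns) within each of the 25 classes or clusters (rows), with 1 UMI added to each library, a colour scale limited to 3 in either direction, dots where the ratio passed 2-fold and grey where both libraries together held under 20 UMIs. Dots crowd the lower rows of epidermal, mesenchymal and other cells, and the first 5 rows hold 2.

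Genes around the 10 factors were read from 7 lists over all kept cells, with the same background of 12.3% lower and 8.48% higher. The median log2 ratio of all genes was −0.25, and −0.11 with the control class shares. Of the 10 genes of the LEF/TCF family and WNT response, 1 was lower by 2-fold, Axin2, a feedback target of the pathway, at 0.461 (0.444 to 0.478), and 0 were higher. Among the others, Znrf3 was at 0.507, Lgr4 at 0.551 and Ctnnb1, the gene of beta-catenin, at 0.829. The list's median log2 ratio of −0.45 became 0.01 with the control class shares. Of 12 WNT and BMP inputs 1 was lower, the matrix ligand Wnt10b at 0.430, and 1 was higher, the BMP target Id1 at 2.08. The BMP receptor gene Bmpr1a was at 0.699 and Id3 at 0.981. Their median was −0.19, and 0.18 with the control class shares, where Id1 (2.31) was still higher by 2-fold. Of 15 relatives of the members with enough UMIs, 5 were lower (Dlx1, Dlx4, Cux2, Hoxc12 and Hoxc11, from 0.312 to 0.464) and 2 were higher, Gata6 at 2.82 and Foxc1 at 2.31. Foxn3, the relative with most UMIs, was at 0.931. Their median was −0.10, and −0.03 with the control class shares, where Hoxc11 (0.406) was still lower by 2-fold.

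Structural genes of the hair, several of them targets of the members, had 0 members higher by 2-fold over all cells. Of 13 hair shaft keratins 7 were lower and 0 higher, with a median log2 ratio of −1.0 that became −0.05 with the control class shares. Krt35 was at 0.348 over all cells, yet its level in hair cortex-like cells was 3251 CPM in the control library and 3696 CPM in the TP library. Krt31 was at 0.499, with 1537 and 2842 CPM in hair cortex-like cells. Of 8 inner root sheath genes 6 were lower and 0 higher, with a median of −1.31 that became −0.17, where Krt26 (0.461) was still lower by 2-fold. Krt25 was at 0.355, the trichohyalin gene Tchh at 0.377 and Krt71 at 0.294 over all cells. Of 6 hair cuticle and desmosome genes 1 was lower, the desmosomal cadherin Dsg4 at 0.309, and 0 were higher, with the cuticle gene S100a3 at 0.951 and a median of −0.63 that became −0.19. Shaft and sheath keratins, Tchh, Dsg4 and S100a3 also served in naming classes, and the genes of these lists were not kept out of clustering. Their levels by class and their ratios at fixed class shares are therefore descriptions. Wnt10a, Wnt10b, Sp5, Lhx2 and Barx2 of the other lists served in naming too, though not in clustering.

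Of 15 other follicle transcription factors 0 were lower by 2-fold and 6 were higher: Sox9 at 4.03, Klf4 at 2.81, Foxc1 at 2.31, Nfatc1 at 2.30, Barx2 at 2.21 and Tbx1 at 2.18. Of the 9 within 2-fold, 4 had a ratio below 1: Runx1 at 0.608, Trps1 at 0.755, Sox21 at 0.945 and Prdm1 at 0.992. The list's median log2 ratio was 0.43, and 0.55 with the control class shares, where 0 of the 15 passed 2-fold. Sox9, Barx2 and Tbx1 had their highest control level in outer bulge-like cells, whose share in TP was 4.91 times that in control (4.47 to 5.39). Foxc1 stands in this list and in that of the members' relatives.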

How the data were processed

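Per the labels and the study's methods, the authors pooled dorsal skin of 15 mice per group, digested it, and made 10x Genomics 3′ libraries that Cell Ranger 8.0.1 counted against mm10 (GRCm38). The deposited matrices hold raw UMI counts per gene and barcode. Following the study, barcodes had to hold between 200 and 8000 genes with mitochondrial UMIs no higher than 10%, and doublets were removed. The rate, 7.5% of the rest, was chosen here, and doublets were scored against artificial doublets in a Python version of the DoubletFinder procedure. Of 45709 control and 25931 TP barcodes, 39076 and 18542 cells were kept. Seurat 5.3.0 integrated the libraries on 2000 variable genes and clustered them at resolution 1, with the 10 members and the genes of 4 lists kept out of the features. A cluster was named where its markers scored a mean z of at least 1.25 and at least 3 of them reached 20 CPM. Any first marker among its 10 leading genes had to be its own, and no other class could have more markers among them. A cluster of low depth also needed a marker of its own there. Cell types are thus rebuilt names, and a difference from the study's may come from them.

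UMIs were summed per class and library (classes of at least 50 cells in each) and scaled to CPM. A difference was called where the log2 ratio with 1 UMI added was at least 1 in size with 20 or more UMIs. With 1 library per group no p-value was computed. Intervals are 95% exact Poisson for CPM, Clopper-Pearson for shares and conditional binomial for ratios. To compare shares across depths, cells were drawn to 1000 UMIs, leaving out 5358 control and 819 TP cells with fewer. Only TMM factors were taken from edgeR 4.0.16. Fold calls were tested on simulated data. The members and lists were chosen with earlier results of these data known, and one naming rule, on the first marker, was set after the clusters were seen. The text names the members, examples from the lists taken by UMI count or by call, and the 2 genes closest to each member among those with at least 200 UMIs. Krt85 and Krt74 of the lists were not analysed here.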

Additional observations from a re-analysis of the deposited data

Results flagged for a closer look

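In 3 members the counting intervals lay above 1 in one hair-forming class and below 1 in another for the same ratio of TP over control, and the difference between the classes was not tested. Lef1 was at 1.17 (1.08 to 1.26) in hair shaft cuticle-like and 0.861 (0.819 to 0.905) in hair cortex-like cells. Hoxc13 was at 1.62 (1.48 to 1.77) in hair shaft precursor-like and 0.495 (0.372 to 0.649) in inner root sheath-like cells. Gata3 was at 1.12 (1.07 to 1.16) in inner root sheath-like and 0.289 (0.201 to 0.402) in hair shaft precursor-like cells. The intervals cover counting error within 2 libraries, and the control values of Hoxc13 in the sheath (25.2 CPM) and of Gata3 in the precursors (106 CPM) lay within or below the control myeloid-like intervals.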

How the results depend on the processing

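No paired analysis was possible because each group is 1 library, and no replicate could be left out. The count of members past 2-fold over all kept cells (5) was 2 with the TMM factor of 0.838 (Lef1 and Cux1). It was 0 with the control class shares of UMIs and 0 with the TP ones in both libraries. It was also 0 for the ratio of the means of ln(counts per 10000 + 1), which is not a fold of expression and depends on depth. The count stayed at 5 with no minimum of UMIs, a minimum of 50, doublets kept or a mitochondrial limit of 20%. The shares of all genes and of all pairs past 2-fold were counted in the main setting alone, so the counts under the alternatives have no background beside them. Dlx3 went from 0.482 to 1.02 with the control class shares. Gata3 and Ovol1 turned from 0.887 and 0.958 to 1.06 and 1.14 with the TMM factor, and to 1.06 and 1.05 on the mean of ln(counts per 10000 + 1), where Foxq1 turned from 0.830 to 1.22. Msx1 was at 1.39 and 1.17 and Ovol1 at 1.21 and 1.11 with the control and the TP class shares. Hoxc13 was at 1.20 and 0.966. The 89 called pairs within classes were 79 with TMM factors, 64 of 189 with cells drawn to 1000 UMIs, 71 and 105 with a minimum of 50 and with none, 77 of 161 at resolution 0.5 and 109 of 286 at resolution 2. The pairs higher in TP were 1 in the main setting, 3 in drawn cells, 0 at resolution 0.5 and 3 at resolution 2. Foxq1 in the Prr9/Crym cluster, the only higher pair of the main setting, went from 2.28 to 0.831 in drawn cells, and Foxq1 in hair shaft precursor-like cells from 0.391 to 0.558, all with 1 UMI added. The leading class was shared by 8 members, and by 6 to 9 under the alternatives. In the TP library Ovol1 led in inner root sheath-like cells at resolutions 0.5 and 2, and Hoxc13 in hair shaft precursor-like cells at resolution 2. In the control library Gata3 led in a cluster headed by Prr9 and Crym at resolution 0.5. Foxq1 had the fewest classes at 20 UMIs or more, 17 of 25, against 22 to 25 for the other members.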
